A study of Cavia porcellus with 10 samples.

Results

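The genes described here encode the proteins of the cytosolic ribosome. They are the rows of the deposited guinea pig table whose gene name is RPL or RPS followed by digits, with at most a short suffix that marks a relative (A, X, Y or L), together with RPLP0, RPLP1, RPLP2 and RPSA where present. This rule found 70 of 25028 genes in the table, of which 20251 have a gene name. By class, 37 members belong to the large subunit, 23 to the small subunit, 3 to the acidic stalk of the large subunit and 7 are paralogues, which are second copies named with an L after the number. Ribosomal S6 kinases, whose names begin with RPS6K, were left out. The same naming rule finds 82 symbols in the RefSeq gene table for the guinea pig, and 13 of them were not analysed here.

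The ribosome reads the messenger RNA on its small subunit and joins amino acids on its large subunit. Its proteins are made from some of the most abundant messenger RNAs of a growing cell, and these carry a pyrimidine tract at their start through which the kinase mTOR can raise or lower their translation as a group. Members are used in nearly every cell type, so their share of the messenger RNA is commonly read as a measure of the capacity to make protein. Some members also act outside the ribosome, among them RPL5 and RPL11, which can bind MDM2 and thereby stabilize p53.

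The cervix of female Hartley guinea pigs was sequenced at 3 stages: non-pregnant females killed on entry into estrus (NP, 3 animals), mid-pregnancy at 43.6 ± 0.5 days (MT, 3 animals) and late pregnancy before labor at 65.2 ± 1.2 days (LT, 4 animals), with the ages of gestation as mean ± SD. No treatment is named for any stage, and the age of the females is not given in the sources used here. The harvest was directed at the vaginal portion of the cervix, and gestation was estimated from fetal measurements, so that the days are estimates. Each animal is 1 library of poly(A) RNA, with 18730665 to 27881572 reads counted on genes, and the LT libraries (25804572 to 27881572 reads) were larger than 5 of the 6 others. Values are in TPM, the share of a gene among all transcripts after division of its reads by its length, scaled so that each animal sums to 1000000. A TPM value therefore also moves when other genes rise or fall. In bulk tissue, fewer cells of a type and less RNA per cell cannot be told apart.

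The tissue held markers of several cell types, and their amounts differed between animals. Summed over the listed markers, squamous epithelium ranged from 140.4 to 1278 TPM in NP, from 203 to 327 in MT and from 276 to 611 in LT. Markers of columnar secretory epithelium summed to between 383 and 628 TPM in NP, 2089 and 4440.2 in MT and 6647 and 8379 in LT. Smooth muscle markers spanned 7713 to 21878 TPM in NP, 10292 to 15998 in MT and 13702 to 24073 in LT. Fibroblast markers spanned 6001 to 10647 TPM in NP, 5239 to 9989.7 in MT and 6116 to 9198 in LT, while those of endothelium lay between 120.1 and 162 in NP and between 47.8 and 79.9 in LT. Leukocyte markers summed to between 110.4 and 257 TPM over the 10 animals, and both erythroid markers with a row were below 1 TPM in each animal. The part of this varying cell composition in the ribosomal protein values was not tested.

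In their level the 70 members fell into 3 sets. Above 100 TPM in every animal were 52 members, whose means over the 10 animals had a median of 1306 TPM. A further 4 members (RPS2, RPL37, RPL26L1 and RPS4X) had lower levels but at least 3 TPM on average in a stage, the limit for entering the tests. The other 14 lay below that limit. Of these, 7 had between 1 and 125 reads in all (RPS16, RPL3L, RPL24, RPL9, RPS27L, RPL39L and RPS25), and 7 are listed at 0 in all animals (RPS14, RPL39, RPLP1, RPLP2, RPS26, RPL10L and RPL7L1). RPS14, RPS16, RPS25, RPL9, RPL24 and RPL39 encode core proteins that every ribosome uses, so a value at or near 0 in this table is no measurement of their absence. How reads that align to several places were counted is not given in the sources used here, and ribosomal protein genes have many near-identical pseudogene copies. As an example, RPS4X had 19.5, 18.2 and 19.2 TPM in the NP animals, whereas RPS4XP21, a row that the rule leaves out, had 592 to 825 TPM over the 10 animals. The level of any single member is uncertain to that extent, and comparisons between stages are made within a member.

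The members above 100 TPM took a large part of the transcripts. Among the 100 genes of highest mean TPM, 24 were members, and the 8 most abundant members held 29.0% of the summed member TPM. RPS27 (ENSCPOG00000024660), a zinc-binding protein of the small subunit, was the most abundant member in every stage, with 6477 ± 906 TPM (n = 3, SD) in NP, 6437 ± 500.5 TPM (n = 3, SD) in MT and 4773 ± 323 TPM (n = 4, SD) in LT. RPL23A, which lies near the exit of the peptide tunnel, followed with 3047 ± 368 TPM (n = 3, SD), 3386 ± 301 TPM (n = 3, SD) and 2519.6 ± 206 TPM (n = 4, SD). RPL12, at the base of the stalk, had 2248 ± 117 TPM (n = 3, SD), 2752 ± 263 TPM (n = 3, SD) and 2298 ± 173 TPM (n = 4, SD). Means between 1569.9 and 2649 TPM in each stage were found for RPL26, RPS20, RPL7 and RPL37A. The order of the members changed little between stages, with a Spearman rho across the 56 tested members of 0.979 between the NP and MT means and of 0.965 between the MT and LT means. This is a description over genes that share libraries, and much of the order comes from the differences in level between genes. Measured against the median tested gene, the members were short, with a median relative length of 0.371 (range 0.126 to 0.946).

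Summed over the 70 members, the level was highest at mid-pregnancy and lowest in late pregnancy. The sums were 70090.3, 75575 and 81924 TPM in the NP animals, 79065, 81155 and 91569 in the MT animals and 65801, 63783, 65884 and 63114 in the LT animals. The LT animals all lay below the NP and MT animals, whereas NP and MT overlapped. As stage means this is 75863 ± 5922 TPM (SD, n = 3) in NP, 83930 ± 6698 (SD, n = 3) in MT and 64646 ± 1409 (SD, n = 4) in LT, or 7.59%, 8.39% and 6.46% of all transcripts. MT was 1.11 times NP, LT 0.770 times MT and LT 0.852 times NP. As a share of the counted reads, without division by length, the members took 3.25%, 3.71% and 3.03%.

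The position of LT relative to NP depended on how the libraries were scaled. Median-ratio scaling divides each library by the median ratio of its genes to their geometric mean, so that the typical gene is held level. After it the sums were 67806 ± 3592 (SD, n = 3) in NP, 81917 ± 7059 (SD, n = 3) in MT and 70986 ± 2062 (SD, n = 4) in LT. LT was then 0.867 times MT but 1.05 times NP, so the direction between NP and LT was reversed while MT was highest on both scales. The large subunit members had 1.70 ± 0.03 times the summed TPM of the small subunit members in NP (SD, n = 3), 1.74 ± 0.03 in MT (SD, n = 3) and 1.77 ± 0.03 in LT (SD, n = 4). The LT animals, at 1.75 to 1.81, all lay above the NP animals, at 1.68 to 1.74, while the MT animals overlapped with both. This order leans on RPS27, which had 5521, 6588 and 7323 TPM of small subunit sums of 25284.5, 26969 and 29844 in the NP animals. In the LT animals it had 4493 to 5235 TPM of sums of 21808 to 23345. With RPS27 left out of the small subunit sum, the NP and LT animals overlap in this ratio.

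**Figure D1:**
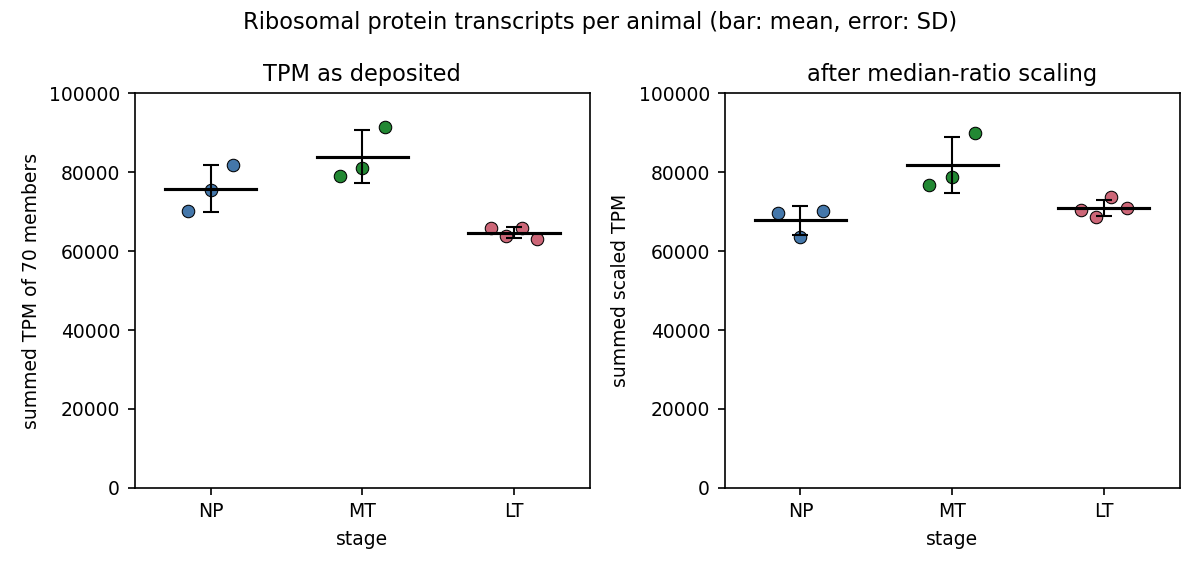
Summed level of the 70 ribosomal protein genes in each animal (points), with stage mean and SD in TPM as deposited (left) and after median-ratio scaling (right). On the left the 4 LT animals lie below all others at 63114 to 65884 TPM, and on the right they lie between 68741 and 73716 with NP at 63672 to 70171.

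The stages were compared gene by gene with limma on log2(TPM + 1), over the 12645 genes whose mean reached 3 TPM in a stage, of which 56 are members. Fold changes below are on that scale, and adjusted P-values are limma's with a Benjamini-Hochberg adjustment over all 12645 genes unless another tool is named. From NP to MT, 52 of the 56 members had a fold change above 0, with a median of 0.14 against -0.14 over all tested genes. Most of these differences did not pass the test. Called higher were 2 members, a share of 3.57% where 6.27% of all tested genes were called higher. None was called lower by limma, edgeR or DESeq2, where 12.2%, 7.98% and 11.5% of all tested genes were, and 0 had an unadjusted P under 0.05 in that direction. For 12 of 56 members (21.4%) all MT animals lay above all NP animals, against 11.4% of all tested genes. With 3 animals against 3, the two-sided exact permutation test on square-root TPM cannot give a P below 0.1, which these 12 reached.

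The largest rise was that of RPS15A (ENSCPOG00000021695), a protein of the small subunit. It had 1510.1, 1739 and 1864 TPM in the NP animals, 2364, 2244 and 2712 in the MT animals and 1805, 1728, 1641 and 1527 in the LT animals. The MT animals lay above all others, and NP and LT overlapped. Between NP and MT it rose by 0.52 (standard error 0.12, adjusted P = 0.0164, exact permutation P = 0.1). RPL10 (ENSCPOG00000002355), a large subunit protein that is added last in assembly, was the other member called, with 1629, 1485 and 1591 TPM in NP and 1826, 1925 and 2106 in MT (log2 fold change 0.31, standard error 0.09, adjusted P = 0.0433). In the LT animals RPL10 had 1645, 1603, 1566 and 1521 TPM, which overlapped with NP and lay below MT.

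These calls turned on the scaling and on single animals. After median-ratio scaling, which moved the median of all genes from -0.14 to -0.02, 13 of 56 members (23.2%) were called higher where 10.4% of all tested genes were, and 0 lower where 7.74% were. The median of the members was then 0.26. RPS15A (0.64, adjusted P = 0.0037), RPL35A (0.48, adjusted P = 0.0122), RPS9 (0.47, adjusted P = 0.0303) and RPL5 (0.45, adjusted P = 0.0422) were among the 13, and RPS9 was singled out after its values were seen. On the deposited TPM scale the number called was 0 without MT replicate 3, which had the highest summed level, 3 without MT replicate 1 or NP replicate 1, and 1 without NP replicate 2, NP replicate 3 or any LT animal.

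From MT to LT, 33 of the 56 tested members fell and none rose in limma. All but RPL29 and RPS4X had a fold change below 0 (54 of 56), and the median was -0.36, a ratio of 0.781, against -0.16 over all tested genes. The 33 are a share of 58.9%, where 22.7% of all tested genes were called lower, and 0 were called higher where 6.73% were. No member had an unadjusted P under 0.05 for a rise, edgeR called 0 higher (13.4% of all tested genes) and DESeq2 called 1, RPL29 (17.4% of all tested genes). In 44 members (78.6%) all LT animals lay below all MT animals, against 35.5% of all tested genes, and 42 reached 0.029, the smallest P that the exact permutation test allows with 3 animals against 4. By subunit, 21 of 34 large and 12 of 19 small subunit members were called lower, with medians of -0.35 and -0.40.

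Part of this fall was shared with the other genes of the table. Median-ratio scaling raised the median of all genes from -0.16 to 0.00 and that of the members from -0.36 to -0.19. The number called lower was then 12 of 56 (21.4%), where 15.3% of all tested genes were called lower, and 0 were called higher where 14.0% were. Quantile normalization, which gives every animal the same distribution of values, called 27 lower where 13.2% of all tested genes were. Of these 27, 24 were among the 33 called on the deposited scale. Removal of the trend over gene length also called 27 lower, 26 of them among the 33, where 13.0% of all tested genes were. After median-ratio scaling the sign of the fold change was kept in all but 2 members. Single animals moved the count as well: it was 13 without MT replicate 3, 18 without MT replicate 2, 20 without LT replicate 3 and 44 without NP replicate 1. A fit with the replicate number as an added term (replicate block), which drops LT replicate 4, called 16 lower, 15 of them among the 33. It called 1288 of all 12645 tested genes lower. The 10 members called lower under each of 22 settings, which include every other scaling and the removal of each animal in turn, included RPL7, RPL13A, RPL22, RPL26, RPL31, RPL35A, RPS3A, RPS15A and RPS19. RPL22, RPL31 and RPS19 were singled out for this after their values were seen.

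**Figure D2:**
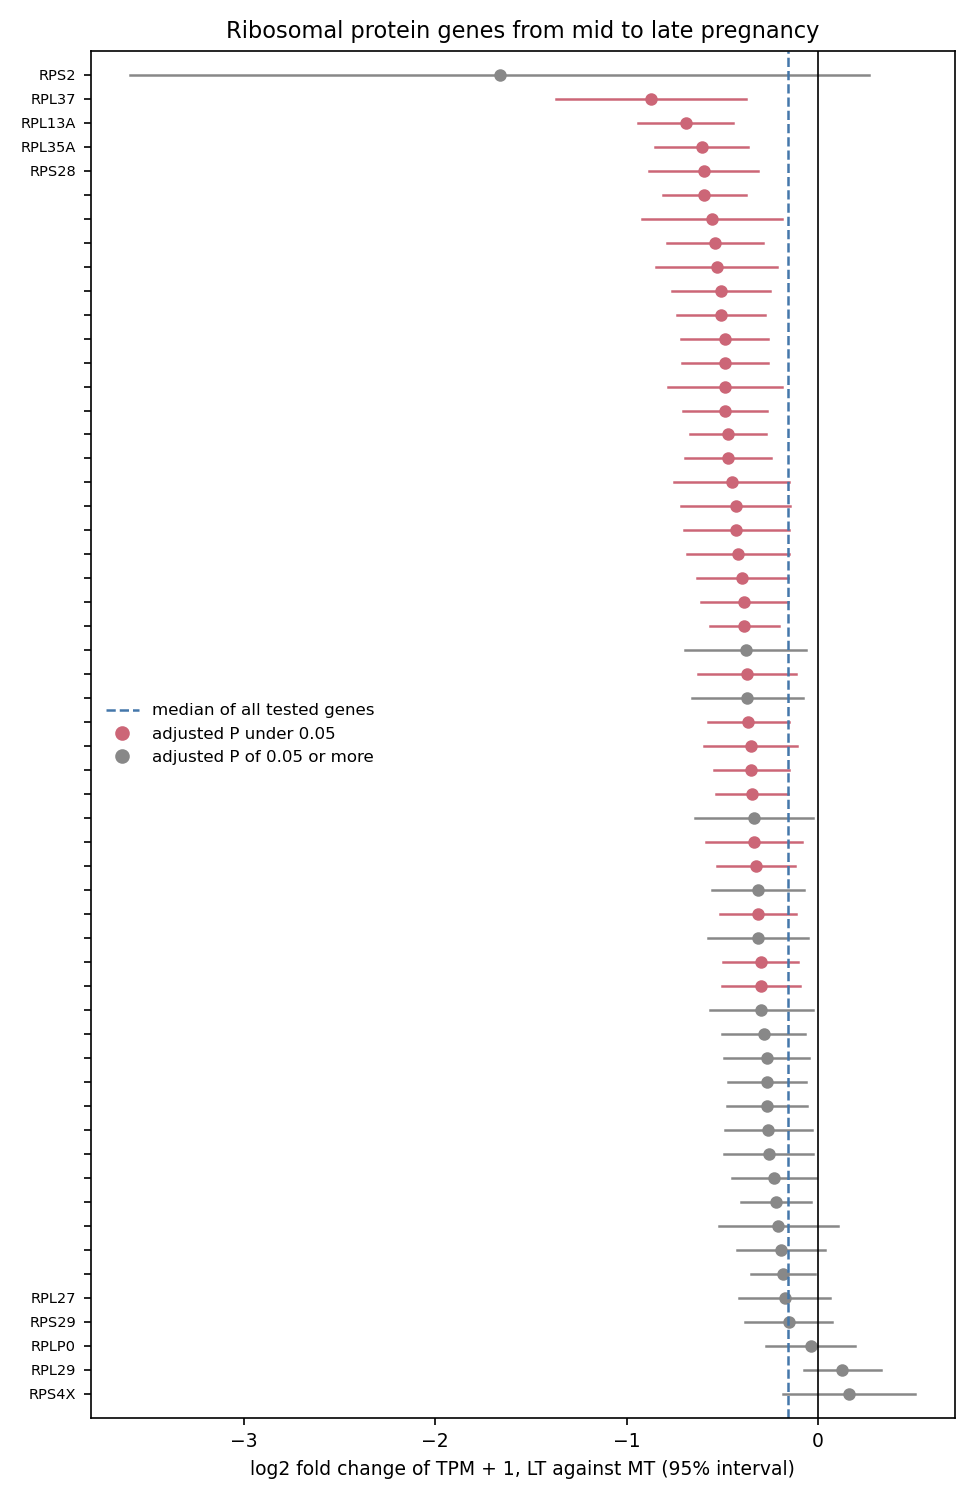
Log2 fold change of TPM + 1 from mid to late pregnancy for the 56 tested members, with 95% intervals from limma, red where the adjusted P was under 0.05; names are given for the members at either end. Of the 56, 54 lie left of 0, and the dashed line marks the median of all tested genes at -0.16.

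RPL13A (ENSCPOG00000012417), a large subunit protein that also joins a complex silencing inflammatory messenger RNAs, had the largest fall among the abundant members. Its values were 1491, 1495 and 1562 TPM in the NP animals, 1684, 1457 and 1881 in MT and 1179.6, 989.5, 964 and 1001 in LT. All LT animals lay below all others, and LT replicate 1 was the highest of them. The change from MT to LT was -0.69 (standard error 0.11, adjusted P = 0.00346, exact permutation P = 0.029), and it was -0.52 after median-ratio scaling (adjusted P = 0.0109).

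RPL35A (ENSCPOG00000015446), a large subunit protein mutated in some patients with Diamond-Blackfan anemia, had 1136, 1300.2 and 1422 TPM in NP, 1488, 1619 and 1824 in MT and 1161, 1065, 1062 and 1015 in LT. Its MT animals were above those of both other stages, and NP overlapped with LT at the low end (log2 fold change -0.61, standard error 0.11, adjusted P = 0.00469 from MT to LT). RPL26 (ENSCPOG00000001315), which lies at the tunnel exit, had 2069, 2169 and 2264 TPM in NP, 2618, 2439.5 and 2889 in MT and 1819, 1599.5, 1768 and 1823 in LT, with no overlap between any of the stages (log2 fold change -0.59, standard error 0.10, adjusted P = 0.00361). RPS28 (ENSCPOG00000022876), a small subunit protein at the path of the messenger RNA, had 953, 1013 and 1169 TPM in NP, 908, 1029 and 1235 in MT and 786, 648, 703 and 642 in LT. For RPS28 the NP and MT animals overlapped and all LT animals lay below them (log2 fold change -0.60, standard error 0.13, adjusted P = 0.00889). Over the other processing settings the RPS28 change lay between -0.70 and -0.37, and it was not called in all of them.

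RPS15A, which had risen by mid-pregnancy, fell by 0.54 to LT (standard error 0.11, adjusted P = 0.00821). Both comparisons rest on the same MT animals. RPS3A, a small subunit protein, went from 1981 ± 211 TPM (n = 3, SD) to 1392 ± 55.7 TPM (n = 4, SD) (log2 fold change -0.50, standard error 0.10, adjusted P = 0.00758). The most abundant member, RPS27, had 5863, 6663 and 6785 TPM in MT and 4493, 4730.5, 5235 and 4633 in LT (log2 fold change -0.43, standard error 0.13, adjusted P = 0.0315), and after median-ratio scaling the change was -0.26 (adjusted P = 0.124). Among the other abundant members, RPL23A (-0.43, adjusted P = 0.0275), RPL7 (-0.49, adjusted P = 0.00758) and RPL37A (-0.33, adjusted P = 0.0486) were called lower. After median-ratio scaling RPL7 kept its call (-0.32, adjusted P = 0.0251), whereas RPL23A (-0.26, adjusted P = 0.0951) and RPL37A (-0.16, adjusted P = 0.291) did not. RPL12 (-0.26, adjusted P = 0.086) and RPS20 (-0.30, adjusted P = 0.0869) were not called on the deposited scale, and their MT and LT animals overlapped.

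**Figure D3:**
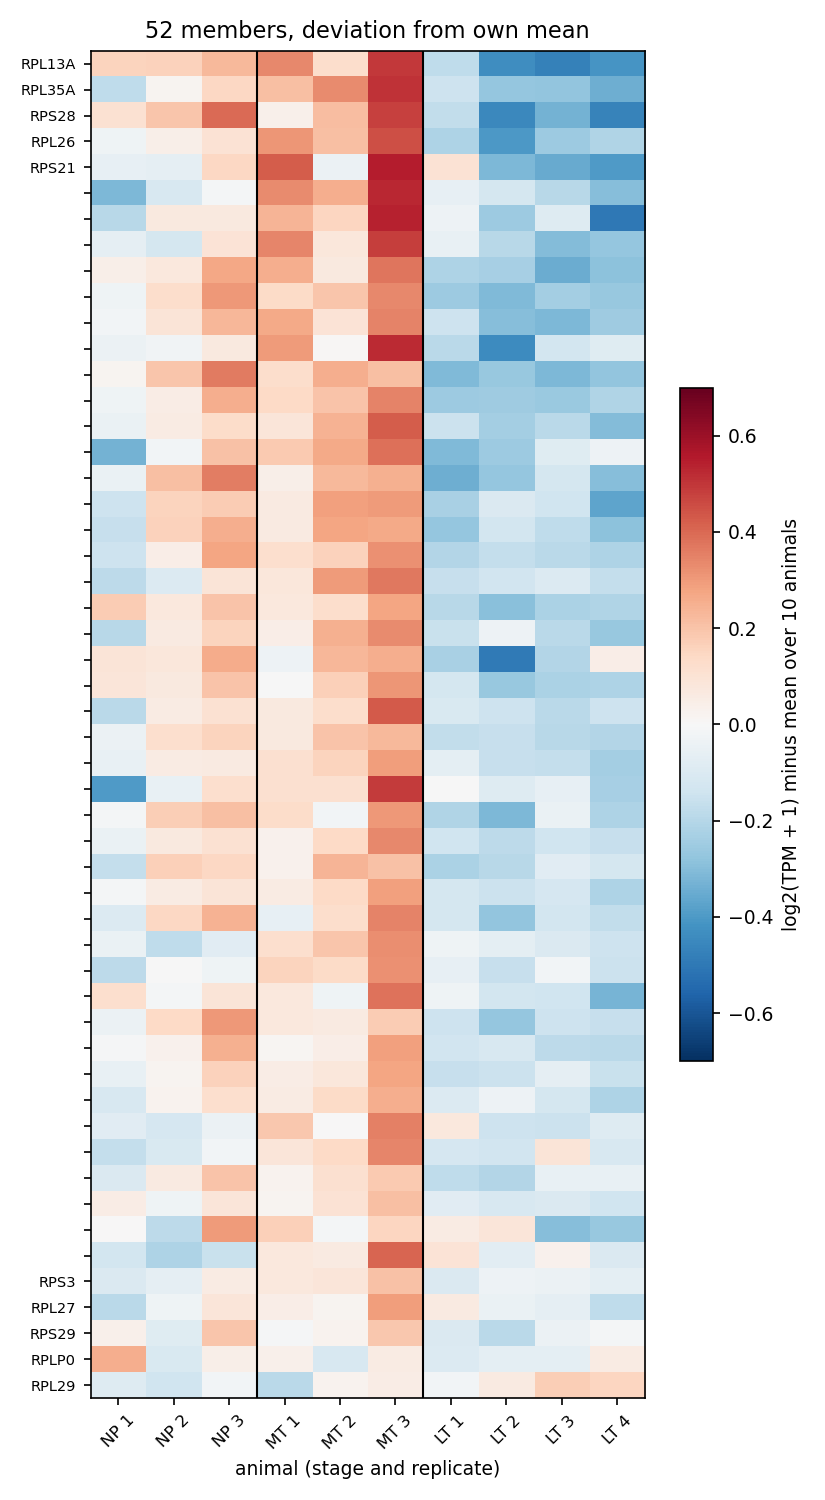
Deviation of log2(TPM + 1) from its mean over the 10 animals for the 52 members above 100 TPM (rows, ordered by the change from MT to LT and named at either end) in each animal (columns). MT replicate 3 is above the mean in all 52 rows, most LT squares are below it, and RPL29 in the last row runs the other way.

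RPL5 and RPL11, which with the 5S ribosomal RNA form the particle that binds MDM2, had intermediate changes. RPL5 (ENSCPOG00000000698) had 1174, 1459.9 and 1706 TPM in NP, 1682, 1777 and 1935 in MT and 1193, 1238, 1393 and 1441 in LT. From MT to LT it fell by 0.45 (standard error 0.13, adjusted P = 0.0311), while between NP and MT the fold change was 0.33 (adjusted P = 0.136). RPL11 had 805 ± 85.3 TPM (n = 3, SD) in NP, 936 ± 131 TPM (n = 3, SD) in MT and 729 ± 16.4 TPM (n = 4, SD) in LT, and it fell by 0.35 from MT to LT (adjusted P = 0.0368). After median-ratio scaling the MT to LT change of neither was called (-0.28, adjusted P = 0.11 for RPL5 and -0.18, adjusted P = 0.183 for RPL11).

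Some abundant members were not called lower, and a few differed little between MT and LT. RPLP0 (ENSCPOG00000021812), which anchors the acidic stalk and is widely used as a reference gene, had 1736, 1351 and 1496 TPM in NP, 1489.8, 1347 and 1509.6 in MT and 1359, 1386, 1386 and 1513 in LT. The stages overlapped throughout, and the change from MT to LT was -0.04 (95% interval -0.27 to 0.20, adjusted P = 0.814), with the other sign after median-ratio scaling (0.13, adjusted P = 0.49). Its stalk partners RPLP1 and RPLP2 are listed at 0. RPL29 (ENSCPOG00000011738), a large subunit protein also described as a heparin-binding protein, was the only member above 100 TPM whose mean was higher in LT than in MT, and it was singled out after its values were seen. It had 648, 626 and 681 TPM in NP, 607, 701 and 716 in MT and 679.9, 720.3, 777 and 765 in LT, with overlap between MT and LT (log2 fold change 0.13, standard error 0.09, adjusted P = 0.306, 95% interval -0.07 to 0.33).

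**Figure D4:**
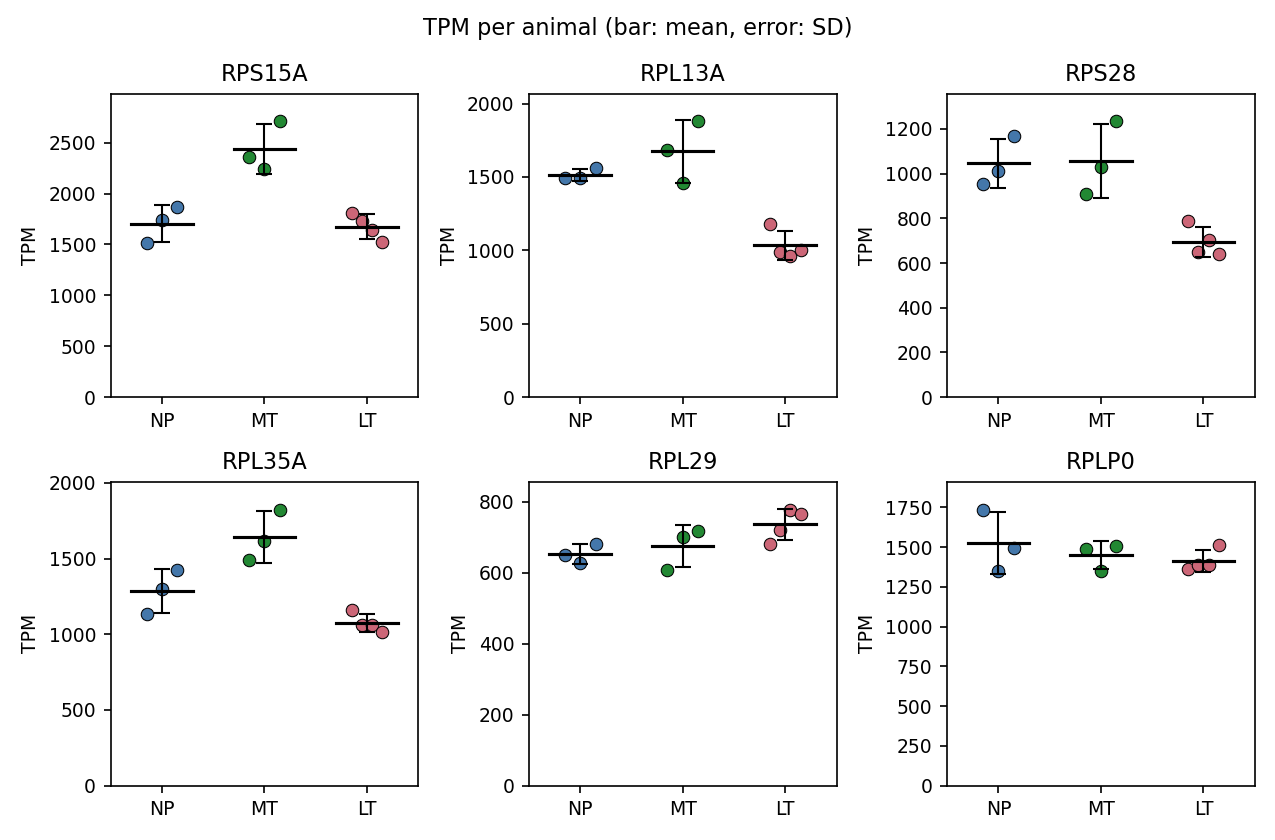
TPM of RPS15A, RPL13A, RPS28, RPL35A, RPL29 and RPLP0 in each animal (points) by stage, with mean and SD. The first 4 drop from MT to LT without overlap, RPLP0 overlaps across all stages, and RPL29 is at 680 to 777 TPM in LT against 607 to 716 in MT.

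Each gene was also fitted relative to the median member of the same animal, which removes what the family shares and any scaling of the library. Few members departed from the median member in this fit. Because that median is taken over the members themselves, they are centred by construction and the other genes are not. In every comparison a member share below the all-gene share is therefore partly fixed in advance. From MT to LT, 2 of 56 (3.57%) rose against it, where 23.6% of all tested genes did. They were RPL29 (0.44, adjusted P = 0.00833) and the low-level RPS4X (0.48, adjusted P = 0.0464). The far more abundant row RPS4XP21, which the rule leaves out, fell in TPM. It had 743, 825 and 781 TPM in MT and 592, 639, 633 and 624 in LT. Another 4 of 56 (7.14%) fell further than the median member, close to the 6.37% of all tested genes called lower: RPL13A (-0.38, adjusted P = 0.0196), RPL35A (-0.29, adjusted P = 0.0199), RPS28 (-0.28, adjusted P = 0.0382) and RPL26 (-0.28, adjusted P = 0.0324). From NP to MT, 2 of 56 (3.57%) rose against the median member, where 5.42% of all tested genes did, and these were RPS15A (0.41, adjusted P = 0.0132) and RPL35A (0.25, adjusted P = 0.0493). These calls rest on single animals. The 4 members called lower from MT to LT became 0 with the replicate block, 0 without MT replicate 3 or LT replicate 3, 1 without MT replicate 2, and 2 without MT replicate 1, LT replicate 2 or LT replicate 4. The 2 called higher stayed 2 without LT replicate 3 or 4, became 3 without NP replicate 1 and 1 without any of the others. From NP to MT the 2 became 0 without MT replicate 3, 3 without NP replicate 1 and 1 without any other animal. Across the 56 members, the MT to LT change had a Spearman rho of 0.229 with relative gene length and of -0.0921 with mean TPM, as a description over genes that share libraries.

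Between the ends of the series, NP and LT, the direction depended on the scaling. On the deposited scale the median of the members was -0.20, against -0.28 over all tested genes. Of the 56, 16 (28.6%) were called lower where 41.9% of all tested genes were, and 0 were called higher where 11.2% were, with 0 at an unadjusted P under 0.05 for a rise. In 26 members (46.4%) all LT animals lay below all NP animals, against 40.6% of all tested genes. After median-ratio scaling the median of all genes moved from -0.28 to 0.00 and that of the members to 0.09. Then 10 members (17.9%) were called higher where 24.7% of all tested genes were, and 0 lower where 25.0% were. The sign of the fold change differed between both scales in 32 of 56 members. The edgeR test on counts, with its own scaling, also called 10 higher and 0 lower, where it called 23.6% and 25.8% of all tested genes. DESeq2 called 13 higher and 3 lower, where it called 26.2% and 27.5% of all tested genes. Quantile normalization went the way of the deposited scale, with a median of -0.30, 1 member called higher and 29 lower, where 21.3% and 23.8% of all tested genes were. With the trend over gene length removed from each animal the median was -0.086, with 3 higher and 6 lower, where 22.0% and 22.1% of all tested genes were. Without single NP animals, the count called lower on the deposited scale was 25 (NP replicate 1), 9 (NP replicate 2) and 7 (NP replicate 3).

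The 5 largest falls called from NP to LT on the deposited scale were those of RPS28 (-0.59, adjusted P = 0.00382), RPL13A (-0.56, adjusted P = 0.00247), RPL7 (-0.48, adjusted P = 0.00291), RPS27 (-0.43, adjusted P = 0.0175) and RPS3A (-0.40, adjusted P = 0.0091). These 5 kept their sign after median-ratio scaling, at -0.29, -0.26, -0.19, -0.14 and -0.10, and none was called there. Over all the other processing settings the RPS28 change lay between -0.74 and -0.15. DESeq2 called RPS28, RPL13A and RPL7 lower. Relative to the median member, the same 3 genes (5.36% of the 56) were lower in LT, where 25.5% of all tested genes were, at -0.38 (adjusted P = 0.00812), -0.35 (adjusted P = 0.0189) and -0.27 (adjusted P = 0.0305). In the other direction 4 members (7.14%) were higher, where 18.6% of all tested genes were: RPS4X (0.52, adjusted P = 0.0244), RPL29 (0.38, adjusted P = 0.00944), RPS9 (0.36, adjusted P = 0.0103) and RPL12 (0.24, adjusted P = 0.0477). RPS9, a small subunit protein, had 663, 625 and 651 TPM in NP and 776, 689.6, 739 and 676 in LT, without overlap, and 764, 757 and 961 in MT. Without single animals these counts became 1 lower without LT replicate 3 or NP replicate 2, 2 lower without LT replicate 1 or NP replicate 3, 2 higher without LT replicate 2, NP replicate 2 or NP replicate 3, and 6 higher without NP replicate 1. For the whole set above 100 TPM, 47 of 52 members had their highest stage mean in MT and 46 their lowest in LT on the deposited scale. The share of all tested genes with this order was not counted, and the place of LT below NP depends on the scaling.

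Of the 4 tested members of low level, RPL37 and RPL26L1 had their highest mean in MT and their lowest in LT, as most members did. RPS2 and RPS4X did not. RPS2 (ENSCPOG00000025008), a small subunit protein methylated by PRMT3, had 62.3, 81.3 and 73.5 TPM in NP, 70.1, 60.0 and 68.9 in MT and 64.5, 76.6, 7.22 and 3.84 in LT. The 8 other animals lay between 60.0 and 81.3 TPM, whereas LT replicates 3 and 4 lay far below them. In reads the level was 124 and 61 in LT replicates 3 and 4, against 661 to 1309 in the others. The mean of LT replicates 1 and 2 was 12.8 times that of LT replicates 3 and 4, so the stage mean of 38.0 ± 37.9 TPM (n = 4, SD) describes no animal, and the change from MT to LT was not called (log2 fold change -1.66, standard error 0.87, adjusted P = 0.168). RPS16, below the test limit, had 1.64, 1.81, 0.285 and 0.103 TPM in the LT animals, from 16, 19, 3 and 1 reads, and 1.02 to 2.84 TPM in the NP and MT animals. Over all tested genes, 16 had LT replicates 3 and 4 each more than 4 times below the lowest other animal, and 1 of these 16 was a member, RPS2.

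RPL37 (ENSCPOG00000013562), a zinc-binding protein of the large subunit, had 31.3, 39.5 and 45.4 TPM in NP, 52.3, 46.5 and 51.6 in MT and 37.8, 30.8, 25.4 and 17.5 in LT, from 123 to 341 reads. The LT animals all lay below the MT animals, and the fall of 0.87 (standard error 0.22, adjusted P = 0.0175) was the largest of those called. RPS4X, whose gene is on the X chromosome in mammals, had 19.5, 18.2 and 19.2 TPM in NP, 21.5, 17.8 and 24.5 in MT and 26.7, 29.4, 20.4 and 19.7 in LT. All LT animals lay above the NP animals, and the change from NP to LT was 0.31 (standard error 0.16, adjusted P = 0.12), or 0.59 after median-ratio scaling (adjusted P = 0.0112). RPS4XP21 did not share this rise, with 645, 627 and 703 TPM in NP and 592, 639, 633 and 624 in LT. RPS21, a small subunit protein, varied most among the MT animals of the abundant members, with 1075, 779 and 1173 TPM in MT and 857, 643, 626 and 607 in LT.

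**Figure D5:**
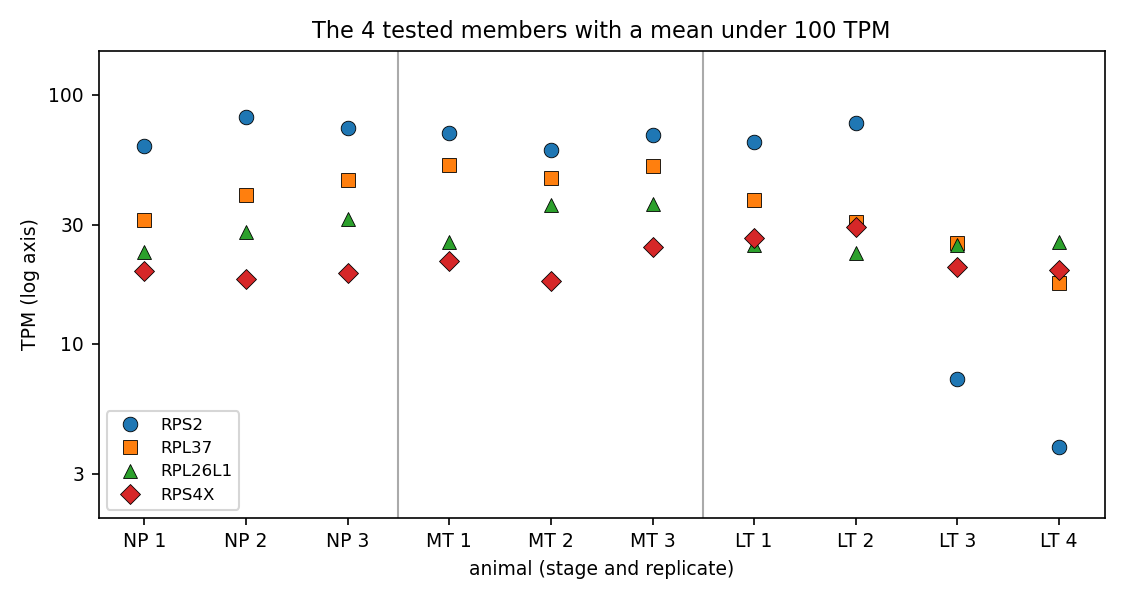
TPM on a log axis of RPS2, RPL37, RPL26L1 and RPS4X in each animal. RPS2 lies between 60.0 and 81.3 TPM in 8 animals and at 7.22 and 3.84 TPM in LT replicates 3 and 4.

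Of the 7 paralogues, 2 were measured at a level that entered the tests. RPL22L1, which can take the place of RPL22, had 302, 265 and 371 TPM in NP, 339, 298 and 334 in MT and 313, 319, 245 and 251 in LT. The stages overlapped, and the change from MT to LT was -0.21 (standard error 0.14, adjusted P = 0.277). RPL22 itself had 549.9, 574 and 636 TPM in MT and 418, 420.3, 417 and 431 in LT, and it fell by 0.47 (standard error 0.09, adjusted P = 0.00561). The difference between the fold changes of RPL22 and RPL22L1 was not tested. RPL26L1, a close copy of RPL26, had 23.3, 28.0 and 31.7 TPM in NP, 25.5, 36.1 and 36.4 in MT and 24.9, 23.1, 25.0 and 25.5 in LT, with a change of -0.38 from MT to LT (adjusted P = 0.0691).

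The other paralogues were at or near 0. RPL3L, which replaces RPL3 in striated muscle, had 1.38, 0.726 and 0.560 TPM in NP, 0.349, 0.148 and 0.363 in MT and 0.171, 0.191, 0.158 and 0.342 in LT, from 3 to 39 reads, so that all NP animals lay above the rest. RPS27L, a target of p53, had 3 reads over the 10 animals, and RPL39L, known from the testis, had 2. RPL10L, a copy also known from the testis, and RPL7L1, a nucleolar assembly factor, are listed at 0.

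Related groups of genes were read beside the members, as counts and medians, from lists of genes that make, switch on or resemble the ribosome. From MT to LT they stand against 6.73% of all tested genes called higher and 22.7% called lower with a median of -0.16, or 14.0% and 15.3% with a median of 0.00 after median-ratio scaling. Elongation and initiation factors, with other messenger RNAs of the same pyrimidine-tract class, had 29 tested genes, of which 4 were called higher and 7 lower from MT to LT, with a median of -0.06 (0.11 after median-ratio scaling, with 8 higher and 5 lower). EEF1A1, the elongation factor that delivers transfer RNA, went from 5786 ± 379.7 TPM (n = 3, SD) to 3791 ± 97.5 TPM (n = 4, SD) (log2 fold change -0.61, standard error 0.12, adjusted P = 0.00626). EEF2, which moves the ribosome along the message, went from 2044 ± 297 TPM (n = 3, SD) to 1211 ± 138 TPM (n = 4, SD) (log2 fold change -0.75, standard error 0.14, adjusted P = 0.00479). FAU encodes a small subunit protein fused to a ubiquitin-like peptide and so escapes the naming rule, and it went from 927 ± 102 TPM (n = 3, SD) to 611 ± 39.8 TPM (n = 4, SD) (log2 fold change -0.60, standard error 0.10, adjusted P = 0.00415). The initiation factors EIF4A2 (-0.58, adjusted P = 0.00893) and EIF4A1 (0.37, adjusted P = 0.0472) were called in opposite directions, and EIF5A was called higher (0.43, adjusted P = 0.00971). These genes were named after their values were seen.

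Factors that assemble the ribosome in the nucleolus had 47 tested genes with 2 called higher, 4 lower and a median of -0.04 from MT to LT (0.13 after median-ratio scaling, with 9 higher and 2 lower). RNA polymerase I and its factors, which make ribosomal RNA, had 19 tested genes with 0 called higher, 7 lower and a median of -0.22 (-0.05 after scaling, with 2 higher and 5 lower). Among the 7 was the transcription factor MYC, at 55.7 ± 4.52 TPM (n = 3, SD) in MT and 38.3 ± 6.76 TPM (n = 4, SD) in LT (log2 fold change -0.54, standard error 0.14, adjusted P = 0.0164). The mTOR pathway with the S6 kinases had 22 tested genes, 1 higher and 8 lower, with a median of -0.13 (0.03 after scaling, with 2 higher and 3 lower). MTOR itself had a change of -0.33 (adjusted P = 0.02) and its partner RICTOR one of -0.94 (adjusted P = 0.00626), while EIF4EBP1, the translation repressor it phosphorylates, was called higher (0.32, adjusted P = 0.0141). After median-ratio scaling the changes of MYC (-0.38, adjusted P = 0.0823) and MTOR (-0.16, adjusted P = 0.174) were no longer called, and those of RICTOR and EIF4EBP1 were. These genes too were named after their values were seen. Proteins of the mitochondrial ribosome, a separate machine inside mitochondria, had 69 tested genes with 6 higher, 1 lower and a median of 0.09, and after median-ratio scaling 30 higher, 0 lower and a median of 0.25. Whether these medians differ from that of the cytosolic members was not tested.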

How the data were processed

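Cervix from 10 guinea pigs (3 NP, 3 MT, 4 LT) was sequenced strand-specifically with reads of 75 bases. The authors aligned the reads with TopHat2 to cavPor3 and counted them per gene with HTSeq-count (0.5.4p1 in the submitters' processing notes, which also name CASAVA 1.8.2). They deposited whole-number counts and TPM values for 25028 genes. How reads aligned to several places were handled is not given in the sources used here. Both units were used as deposited. The depth of 18730665 to 27881572 counted reads per animal leaves more counting error in the members with few reads, and differences between animals add to it in every member.

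Stage means, SDs and ratios were taken from TPM. Changes were tested two-sided with limma 3.58.1 (trend) in R 4.3.3 on log2(TPM + 1), in 1 fit of all animals with the stage as the only term, over 12645 genes whose mean reached 3 TPM in a stage, with Benjamini-Hochberg adjustment at 0.05. The pseudocount of 1 understates changes of low genes. Single members were compared by exact permutation tests on square-root TPM. Alternatives were another scale, pseudocount (0.1), filter (none or 10 TPM), scaling, stage selection, a replicate block, leaving out each animal, edgeR 4.0.16 (quasi-likelihood) and DESeq2 1.42.0 on the counts. Scripts were tested on simulated data. Replicates are separate animals by the study's methods.

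Members and lists were chosen with earlier results of these data known. The genes named are, apart from an item not reported here, the 8 most and 3 least abundant members, the 5 largest rises and falls called in each comparison, all paralogues, RPLP0 to RPLP2, RPL5, RPL11 and the 3 most variable members within a stage. Others are stated as named after their values were seen. RefSeq symbols come from assembly mCavPor4.1, which is not the build of the files, so no coordinates or sequences are given.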

Additional observations from a re-analysis of the deposited data

Results flagged for a closer look

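In a group of 4 animals, 1 animal was called far from the rest when its gap to the nearest of the others exceeded the 95% critical value of Dixon's ratio of gap to whole range. Chance gives such a flag in about 1 of 20 groups, and 23 groups of LT values were examined. RPL12 was highest in LT replicate 3 at 2557 TPM, with the other LT animals at 2192 to 2228. RPS21 was highest in LT replicate 1 at 857 TPM, with the others at 607 to 643.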

How the results depend on the processing

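On the deposited scale the members called higher from NP to MT numbered 2. They were 1 on square-root TPM, 1 without a filter, 13 with median-ratio scaling, 0 with quantile normalization, 15 in edgeR, 30 in DESeq2, 11 with the length trend removed and 0 with only both stages fitted, where the same settings in that order called 6.22%, 4.61%, 10.4%, 9.95%, 10.1%, 13.1%, 10.3% and 3.99% of all tested genes higher. They were 0 to 3 with 1 animal left out. Without a filter 1 member, RPL3L, was called lower, as were 9.43% of all genes tested. The median was 0.26 with median-ratio scaling, edgeR and DESeq2, and 0.08 to 0.19 with 1 animal left out. From MT to LT the 33 called lower became 12 with median-ratio scaling, 13 in edgeR and 20 in DESeq2, where 1 was called higher (15.3%, 15.6% and 18.8% of all tested genes were lower), 27 with quantile normalization, 27 with the length trend removed (13.2% and 13.0%), and 13 to 44 with 1 animal left out. The median became -0.19 with median-ratio scaling, edgeR and DESeq2 and lay between -0.42 and -0.29 with 1 animal left out. From NP to LT the members called higher were 10 with median-ratio scaling, 1 with quantile normalization, 10 in edgeR, 13 in DESeq2 and 3 with the length trend removed, against 24.7%, 21.3%, 23.6%, 26.2% and 22.0% of all tested genes. Those called lower were 0, 29, 0, 3 and 6 in the same order, against 25.0%, 23.8%, 25.8%, 27.5% and 22.1% of all tested genes. They were 11 without a filter (33.8% of all genes tested), 10 of them among the 56, and 7 to 25 with 1 animal left out. The medians in that order were 0.092, -0.30, 0.092, 0.094 and -0.086, and -0.27 to -0.16 with 1 animal left out. RPS15A changed sign from NP to LT, to 0.27 with median-ratio scaling, edgeR and DESeq2. The square-root scale gives no median on the log2 scale. Why these settings differ was not tested.

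The summed level in LT was 0.867 times MT with median-ratio scaling. LT was 0.932 times NP as a share of reads and 1.05 times NP with median-ratio scaling, a setting added after the data were seen. With 1 animal left out the ratios were 1.06 to 1.15 (MT over NP), 0.749 to 0.807 (LT over MT) and 0.821 to 0.888 (LT over NP). Relative to the median member, the counts with 1 animal left out, also added later, were 0 to 3 higher and 0 lower from NP to MT, 1 to 3 higher and 0 to 4 lower from MT to LT, and 2 to 6 higher and 1 to 4 lower from NP to LT.

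Replicate numbers did not pair the animals: of 9 same-number pairs, 3 had a correlation of deviations above 0.1 (range -0.287 to 0.254). With a replicate block over 9 animals, which drops LT replicate 4, 1 member was called higher from NP to MT, 16 lower from MT to LT and 12 lower from NP to LT. Relative to the median member, the replicate block left 1 higher from NP to MT, and 1 higher and 0 lower from MT to LT. Over all tested genes the block called 1579, 1702 and 5445 genes instead of 2342, 3723 and 6718. Of the 12645 tested genes it called 628 higher from NP to MT, 1288 lower from MT to LT and 4297 lower from NP to LT. For single named members, 1127 values kept direction and call, 34 gained a call, 143 lost it, 79 changed sign without being called on either side and 3 changed sign with a call. Members listed at 0 limit what the counts can show.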
